A study of Mus musculus with 19 samples.

Results

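The genes described here are 10 members of the system that remodels the extracellular matrix of fat: the matrix metalloproteinases Mmp2, Mmp3, Mmp11, Mmp13, Mmp14, Mmp15 and Mmp19, and the tissue inhibitors Timp1, Timp2 and Timp3. They were taken by gene symbol from read counts of whole mouse fat, with Mmp9 and Mmp12 kept apart because leukocytes make much of them. All 10 of the 24348 listed genes were found, and all 10 were among the 16015 genes with enough reads to test. The tissue was whole perigonadal fat, the depot beside the gonads, of C57BL/6 mice in a study of 2 models of weight gain.

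The 19 libraries formed 4 groups. HFD fed libraries (titles ALO, n = 4) came from mice on a 60% high-fat diet, sampled fed at their peak weight. HFD fasted libraries (ALOneg, n = 4) came from the same diet after 24 hours without feeding. Ensure fed (OIO, n = 6) and Ensure fasted (OIOneg, n = 5) libraries were the matching groups of the model based on Ensure, a commercial nutrition drink. All groups had gained weight, no lean group was used here, and ages are not in the labels. A library is called by its group and its title's number. Since no label ties each one to its own animal, the p-values cover only the spread among these libraries, which may be technical.

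Matrix metalloproteinases (MMPs) are zinc enzymes that cut collagens and other proteins of the matrix. Most are made as inactive proenzymes and are held in check by TIMPs, which bind the active site. In fat, they open the collagen around adipocytes as these enlarge, and stromal cells, adipocytes and macrophages all make some of them. Within the family, Mmp2 is a gelatinase, Mmp13 a collagenase, Mmp3 and Mmp11 are stromelysins, Mmp14 and Mmp15 are anchored in the cell membrane, and Mmp19 stands outside these classes.

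Promoters are shown for the genes the results turn on. Mmp11 was the member called in 4 comparisons. Mmp3, Mmp13 and Timp1 had their highest value in the same library, HFD fasted 28. This was not particular to them, since Mmp2, Mmp11, Mmp14 and Mmp19 also had their highest value there. The sequences are from RefSeq on the mouse build GRCm38.p6, each running from 250 bases before to 50 bases after the gene's start, in the direction of the gene; 8 of the 10 members had an entry. For Mmp3 (chr9:7445572-7445871, plus strand) and Mmp13 (chr9:7272264-7272563, plus strand), capitals mark TGANTCA, the core bound by AP-1 factors.
Mmp3 promoter: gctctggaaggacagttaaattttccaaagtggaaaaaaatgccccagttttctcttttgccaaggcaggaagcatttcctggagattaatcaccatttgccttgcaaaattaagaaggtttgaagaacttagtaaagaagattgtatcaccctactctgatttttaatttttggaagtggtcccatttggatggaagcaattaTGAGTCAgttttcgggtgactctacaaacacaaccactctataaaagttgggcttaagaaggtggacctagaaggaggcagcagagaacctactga
Mmp13 promoter: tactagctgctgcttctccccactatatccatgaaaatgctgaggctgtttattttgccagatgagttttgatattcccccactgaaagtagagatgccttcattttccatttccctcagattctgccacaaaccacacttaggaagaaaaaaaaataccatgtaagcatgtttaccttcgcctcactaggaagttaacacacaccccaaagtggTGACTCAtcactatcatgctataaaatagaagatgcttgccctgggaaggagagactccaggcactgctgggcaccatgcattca
For Mmp11 (chr10:75932453-75932752, minus strand) and Timp1 (chrX:20869916-20870215, plus strand), capitals mark GGGCGG or its reverse complement, the core bound by Sp1.
Mmp11 promoter: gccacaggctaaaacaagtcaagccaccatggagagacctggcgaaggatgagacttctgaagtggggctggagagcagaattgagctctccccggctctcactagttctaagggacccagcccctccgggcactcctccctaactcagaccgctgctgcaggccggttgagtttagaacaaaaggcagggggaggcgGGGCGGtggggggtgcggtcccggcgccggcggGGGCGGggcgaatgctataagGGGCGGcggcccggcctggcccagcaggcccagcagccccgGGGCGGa
Timp1 promoter: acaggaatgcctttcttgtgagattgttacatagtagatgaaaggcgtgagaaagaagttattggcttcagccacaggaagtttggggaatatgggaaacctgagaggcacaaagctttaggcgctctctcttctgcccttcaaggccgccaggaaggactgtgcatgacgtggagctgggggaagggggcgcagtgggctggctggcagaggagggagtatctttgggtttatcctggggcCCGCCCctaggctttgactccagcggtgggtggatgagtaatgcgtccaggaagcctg
TGANTCA was found once in each of the Mmp3 and Mmp13 windows, its first base 46 and 35 bases before the start, and in none of the other 6 windows. On either strand, 7.81% of 32851 promoter windows of this length held it. Both windows also held TATAAA, apart from TGANTCA; 13.6% of windows had it. The letters GGGCGG were found 4 times for Mmp11 and 1 time for Timp1, were also present for Mmp14, Mmp15, Timp2 and Timp3, and were held by 35.7% of windows. These matches describe the letters and show no binding.

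Levels are given as counts per M reads in genes (CPM) after scaling with TMM, a correction for differences in library composition. The libraries held 12.8 to 22.6 M reads in genes (median 20.2 M). The tissue label held in each library: the summed level of 8 adipocyte markers was 19020 to 52814 CPM. Libraries HFD fasted 24, Ensure fed 10 and 12 and Ensure fasted 2 and 5 stood apart by genes of the epididymis and sperm, which summed to 198 to 9661 CPM there; the remaining 14 libraries held 80.6 CPM or less. Ensure fasted 5 also held 10669 CPM of smooth muscle markers. A further 3 libraries, HFD fed 21, HFD fasted 26 and Ensure fed 16, held epithelial genes (294 to 363 CPM). Sequencing lanes were unevenly spread: all HFD libraries were in lane 7 with 1 Ensure library, and the other Ensure libraries were in lanes 5 and 6. For the diet comparisons, lane and diet could therefore hardly be told apart. Lane 5 held 4 Ensure fasted libraries and 1 Ensure fed library, and lane 6 held 1 fasted and 4 fed. Lane and fasting were therefore largely confounded among the Ensure libraries as well. In whole tissue, a lower level can come from fewer cells of a type or from less RNA per cell, and these cannot be told apart.

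Per kilobase of exon, so that genes can be compared, Timp2 and Timp3 stood above the proteases among the members. Mmp12, which is not a member, was not put on this scale. Its mean in HFD fed fat was 600 CPM before any division by length, against 131 CPM for Mmp2. In HFD fed fat, Timp2 was at 203 ± 27.4 CPM per kb (SD, n = 4) and Timp3 at 66.4 ± 16.7. Among the member proteases, the highest levels per kb were those of Mmp2 (39.0 ± 12.6) and Mmp19 (26.4 ± 7.35), followed by Mmp14 (16.4 ± 2.69) and Mmp11 (15.9 ± 2.99). Timp1, Mmp3 and Mmp15 were at 7.69, 5.29 and 5.27 CPM per kb, and Mmp13 was lowest at 0.760.

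**Figure D1:**
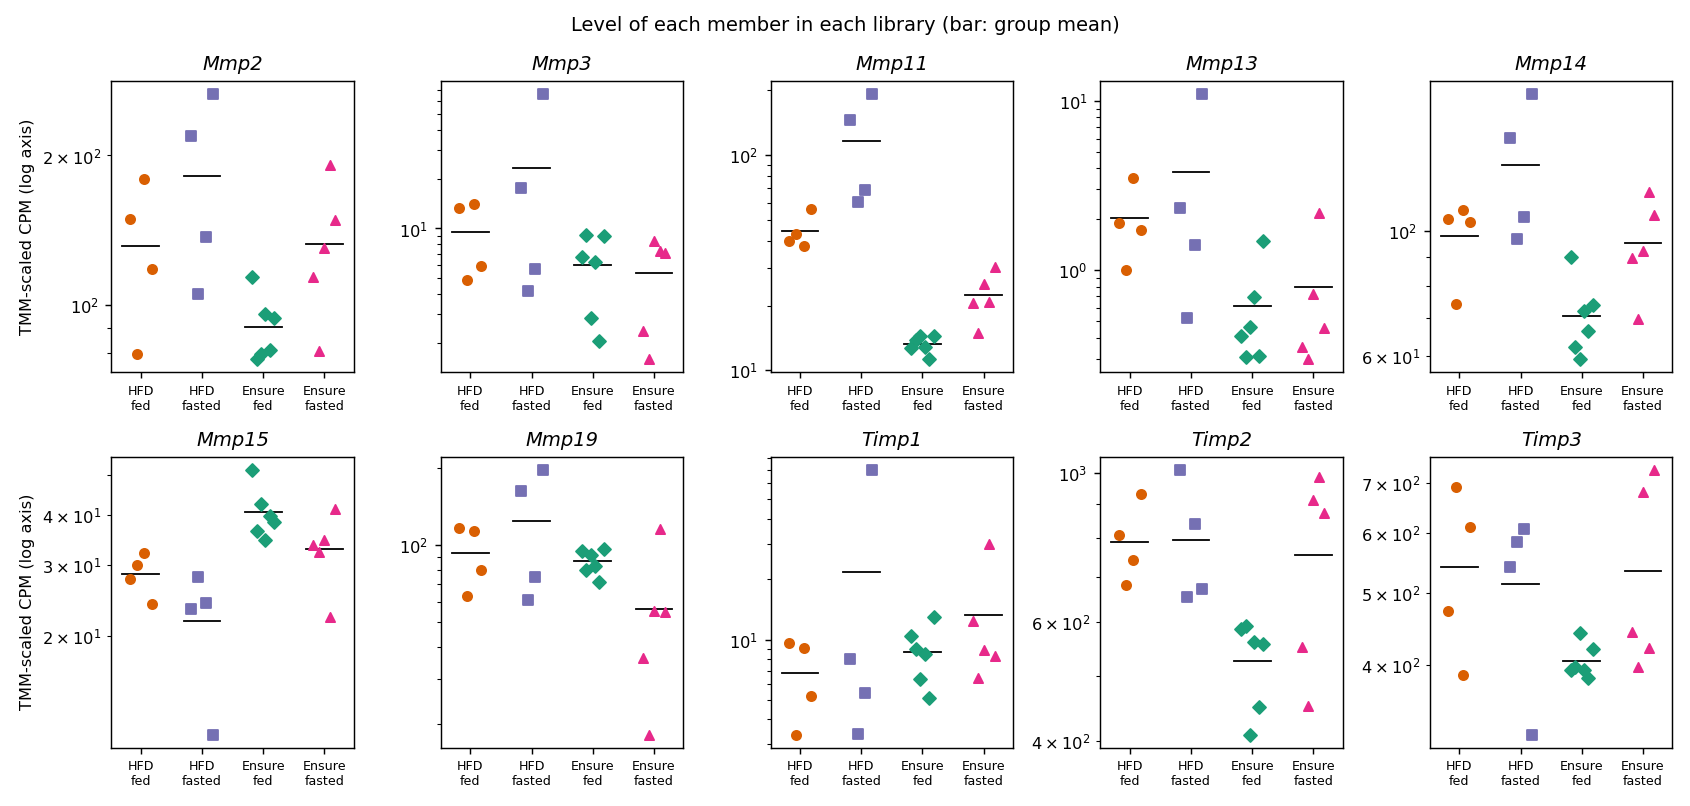
Level in TMM-scaled CPM (logarithmic axis) of each of the 10 members in the 19 libraries; points are libraries and bars are group means. Mmp11 separates all 4 groups, while HFD fasted 28 lies far above its group for Timp1 and Mmp13.

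Mmp11 (stromelysin-3), a secreted protease activated inside the cell by furin and known in mice as a brake on fat cell growth, was the member whose group means differed most, by 8.78-fold from highest to lowest. In HFD fed libraries 21, 22, 25 and 27 it was at 40.0, 42.8, 37.6 and 56.2 CPM. In HFD fasted 23, 24, 26 and 28 it was at 145, 60.2, 68.9 and 191 CPM. Every fasted library lay above every fed one. Ensure fed libraries were at 11.3 to 14.5 CPM (median 13.3), and Ensure fasted 2, 5, 7, 8 and 17 at 20.5, 14.9, 25.2, 20.9 and 30.1 CPM. The order HFD fasted, HFD fed, Ensure fasted, Ensure fed held without overlap between any neighbours. For a single comparison, groups did not overlap for 8.45% (fasting with HFD), 15% (fasting with Ensure), 13.3% (diets, fed) and 3.99% (diets, fasted) of the genes tested. Such a separation of all 4 groups, in any order, was seen for 4 genes, 0.025% of those tested.

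Mmp11 rose after fasting with HFD, by 1.40 ± 0.29 on the log2 scale (SE; 2.64-fold, edgeR quasi-likelihood test, adjusted p = 0.0271). It rose after fasting with Ensure by 0.75 ± 0.25 (1.68-fold, adjusted p = 0.0429). Both rises met the threshold narrowly. The HFD rise was lost without HFD fed 21, 22 or 25 or HFD fasted 23 or 28 (adjusted p up to 0.126), and in a fit of the HFD libraries alone (0.279). The Ensure rise was kept only when the library left out was HFD fasted 24, 26 or 28, Ensure fed 10 or Ensure fasted 5; it was lost in the other 14 omissions (adjusted p up to 0.101) and, narrowly, without the 5 libraries rich in epididymis genes (0.0517). In these omissions the log2 change was 1.07 to 1.61 with HFD and 0.62 to 0.82 with Ensure. limma voom, which gave HFD fasted 28 a weight of 0.0907, put the HFD rise at 0.57 (adjusted p = 0.0271).

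Mmp11 was lower with Ensure than with HFD in both states. Means were 13.3 ± 1.23 against 44.2 ± 8.31 CPM among fed libraries (SD, n = 6 and 4), a fall of 3.33-fold (log2 -1.74 ± 0.26 SE, edgeR adjusted p = 0.00187). They were 22.3 ± 5.70 against 116 ± 62.9 CPM among fasted libraries (n = 5 and 4), a fall of 5.21-fold (log2 -2.38 ± 0.28, adjusted p = 7.29e-04). Both calls held in all 19 omissions of a library; limma voom gave -1.49 for the fasted libraries, and a fit of these groups alone did not call them (adjusted p = 0.108). In lane 7 alone, Ensure fed 18 was at 14.5 CPM against 44.2 CPM over the 4 HFD fed libraries, a log2 ratio of -1.61. Within lanes 5 and 6, Ensure fasted libraries were above Ensure fed ones by 0.68 and 1.20 on the log2 scale, with 1 library on one side each. With lane as a term in the fit, none of the 4 Mmp11 calls held (adjusted p = 0.0561 and 0.112 for fasting with HFD and Ensure and 0.9996 for both diet comparisons), although the log2 changes were 1.40, 0.95, -1.61 and -2.05.

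**Figure D2:**
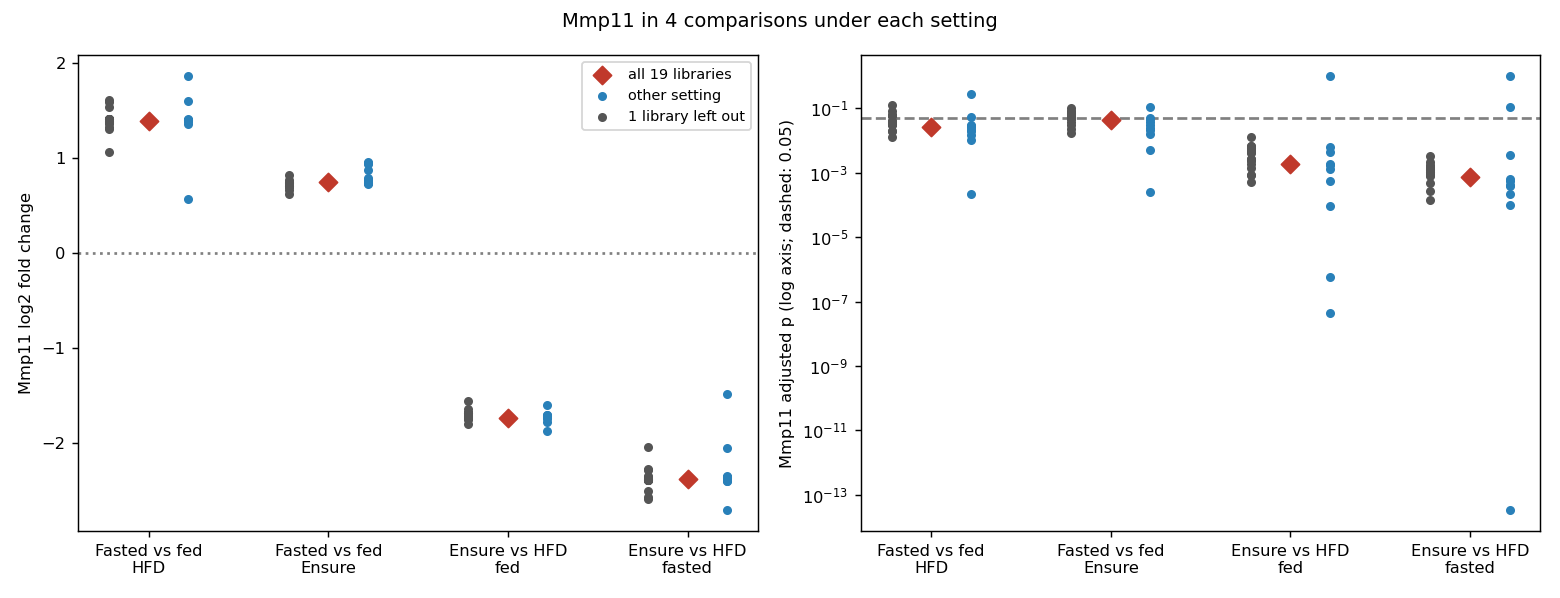
Log2 change of Mmp11 (left) and its adjusted p (right, logarithmic axis, dashed line at 0.05) in the 4 comparisons of groups, for all 19 libraries (red), with 1 library left out (grey) and under other settings (blue). The direction is the same at every point. The adjusted p lies on either side of the line in all 4 comparisons, for the diet comparisons above it only under other settings.

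A gene on the opposite strand, Chchd10, a mitochondrial protein, shares 155 exon bases with Mmp11 in the GENCODE vM21 annotation. The strand setting of the counting is not given in the sources used here, so the assignment of reads to either gene is uncertain. Chchd10 also rose after fasting, by 1.10 on the log2 scale with HFD (edgeR adjusted p = 0.0240) and by 0.71 with Ensure (0.0147). Between fed diets it went the other way from Mmp11: it was higher with Ensure by 0.88 (adjusted p = 0.0243). The part of shared reads in the fasting rise of Mmp11 was not tested.

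Among the 10 members, Mmp11 was the 1 called in each of the 4 comparisons of groups. The background differed between comparisons. With HFD, fasting called 1.22% of all genes tested (0.187% higher). With Ensure, it called 20.3% (10.6% higher), so that 1 of 10 members higher was close to the general rate there. Between diets, 4.26% of genes were called among fed libraries (2.17% lower with Ensure) and 2.82% among fasted ones (1.19% lower). The members' median log2 change was 0.44 for fasting with HFD against 0.06 over all genes, and 0.41 against 0.11 with Ensure. It was -0.51 against -0.04 between fed diets and -0.59 against 0.02 between fasted diets. The median for fasting with HFD depended on the method. With limma voom, which gave HFD fasted 28 a weight of 0.0907, Mmp3, Mmp13, Mmp19, Timp1 and Timp2 had negative changes there. Mmp15 had a negative change there in every setting.

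**Figure D3:**
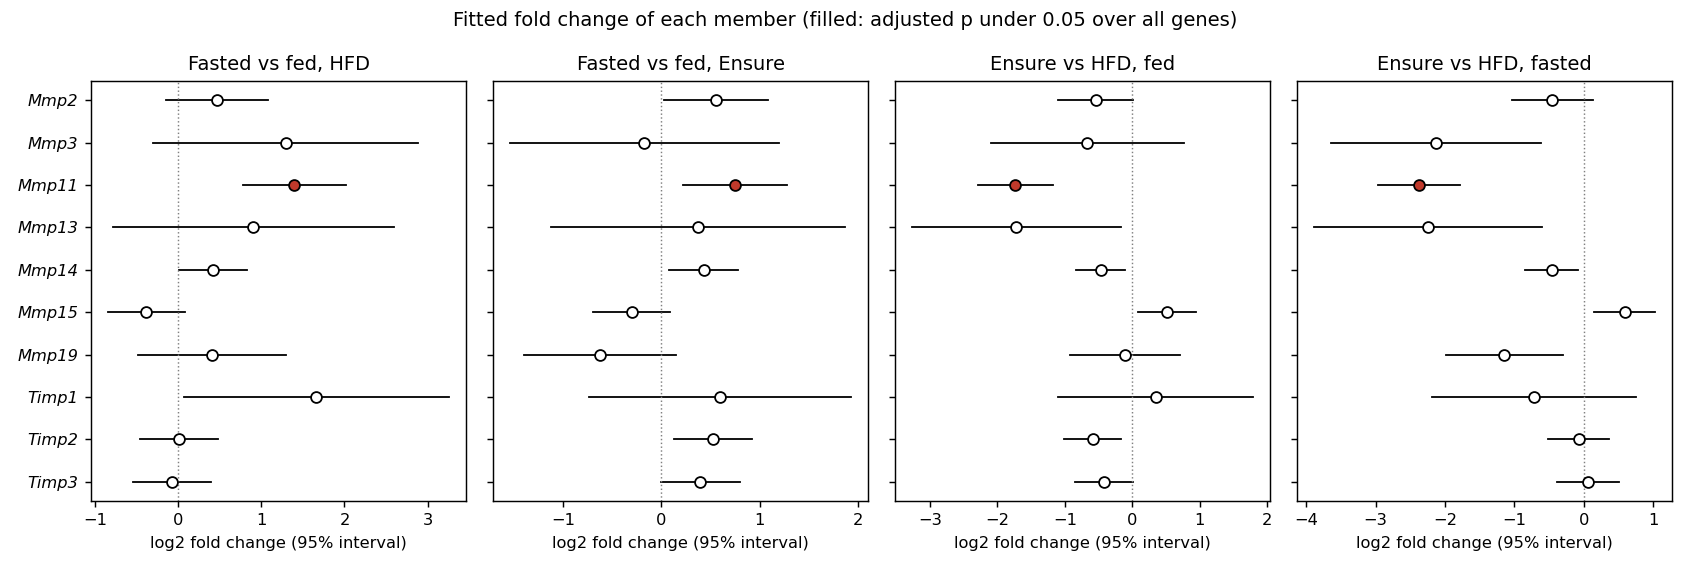
Log2 change of each member with its 95% interval for fasting with HFD, fasting with Ensure, and Ensure against HFD in fed and in fasted mice; filled points passed an adjusted p of 0.05. Mmp11 is the member whose change passed the test in each of these 4 comparisons.

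Mmp14, the membrane-bound enzyme that activates pro-Mmp2 at the cell surface, had higher means after fasting in both models without passing the edgeR test. HFD fed 21, 22, 25 and 27 were at 105, 74.1, 109 and 104 CPM and HFD fasted 23, 24, 26 and 28 at 146, 96.8, 106 and 175 CPM. HFD fasted 24 and 26 lay within the fed range. Fed with Ensure, it was at 59.3 to 89.9 CPM (median 69.3), and Ensure fasted 2, 5, 7, 8 and 17 at 89.5, 69.7, 92.3, 117 and 107 CPM, 3 of them above every fed library. The log2 change was 0.42 ± 0.19 with HFD (edgeR adjusted p = 0.323) and 0.43 ± 0.17 with Ensure (0.0733). The Ensure change was called with total counts, by DESeq2, by limma voom and in a fit of these groups alone, 4 of 10 other settings (adjusted p down to 0.00186), and without Ensure fed 1 or Ensure fasted 5.

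Mmp2 (gelatinase A), which cuts denatured collagen and basement membrane collagen, was at 149, 79.7, 179 and 118 CPM in HFD fed 21, 22, 25 and 27. It was at 219, 105, 137 and 266 CPM in HFD fasted 23, 24, 26 and 28. The ranges overlapped, with HFD fasted 23 and 28 above all fed libraries. With Ensure, fed libraries were at 77.8 to 114 CPM (median 87.6) and Ensure fasted 2, 5, 7, 8 and 17 at 114, 80.8, 130, 191 and 148 CPM. Ensure fasted 5, the library with most epididymis and smooth muscle RNA, was the 1 that lay within the fed range. The change was 0.47 ± 0.29 with HFD (log2, edgeR adjusted p = 0.467) and 0.56 ± 0.25 with Ensure (0.117).

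Timp2, which inhibits MMPs and also bridges Mmp14 and pro-Mmp2, was the most abundant member. Its HFD levels were 808, 681, 743 and 931 CPM fed (21, 22, 25 and 27) and 1009, 655, 841 and 673 CPM fasted (23, 24, 26 and 28), with wide overlap. Ensure fed libraries were at 409 to 592 CPM (median 559), all below every HFD fed library. In Ensure fasted 2, 5, 7, 8 and 17, Timp2 was at 552, 450, 912, 987 and 873 CPM. The libraries 7, 8 and 17 lay above all Ensure fed libraries, while 2 and 5, both rich in epididymis genes, lay within their range. The log2 change with Ensure fasting was 0.52 ± 0.19 (edgeR adjusted p = 0.0588), and it was 0.01 ± 0.22 with HFD (0.991). The former call depended on the setting: it was made with total counts, at a minimum count of 50, by DESeq2, by limma voom and without the 5 libraries rich in epididymis genes, where the change was 0.74. Ensure fed against HFD fed gave -0.59 ± 0.20 (edgeR adjusted p = 0.108) despite the separation, which 13.3% of genes tested shared.

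Levels of Mmp14 and Mmp2 moved together over the 19 libraries (Pearson r = 0.96 on log2(CPM + 0.5), and 0.96 after subtracting group means), and each was among the 3 genes most like the other of 11266 compared. Timp2 followed Mmp2 less closely (r = 0.70, and 0.55 within groups). The genes most like Timp2 were Axl (r = 0.94), Antxr1 (0.93) and Clec3b (0.92). Within groups Timp2 followed the summed level of 10 stromal progenitor markers (r = 0.88). Over all libraries that coefficient was 0.26, and Timp2 went against the summed level of epididymis and sperm genes within groups (r = -0.83). These libraries share tissue makeup and scaling, and the coefficients are given as a description.

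**Figure D4:**
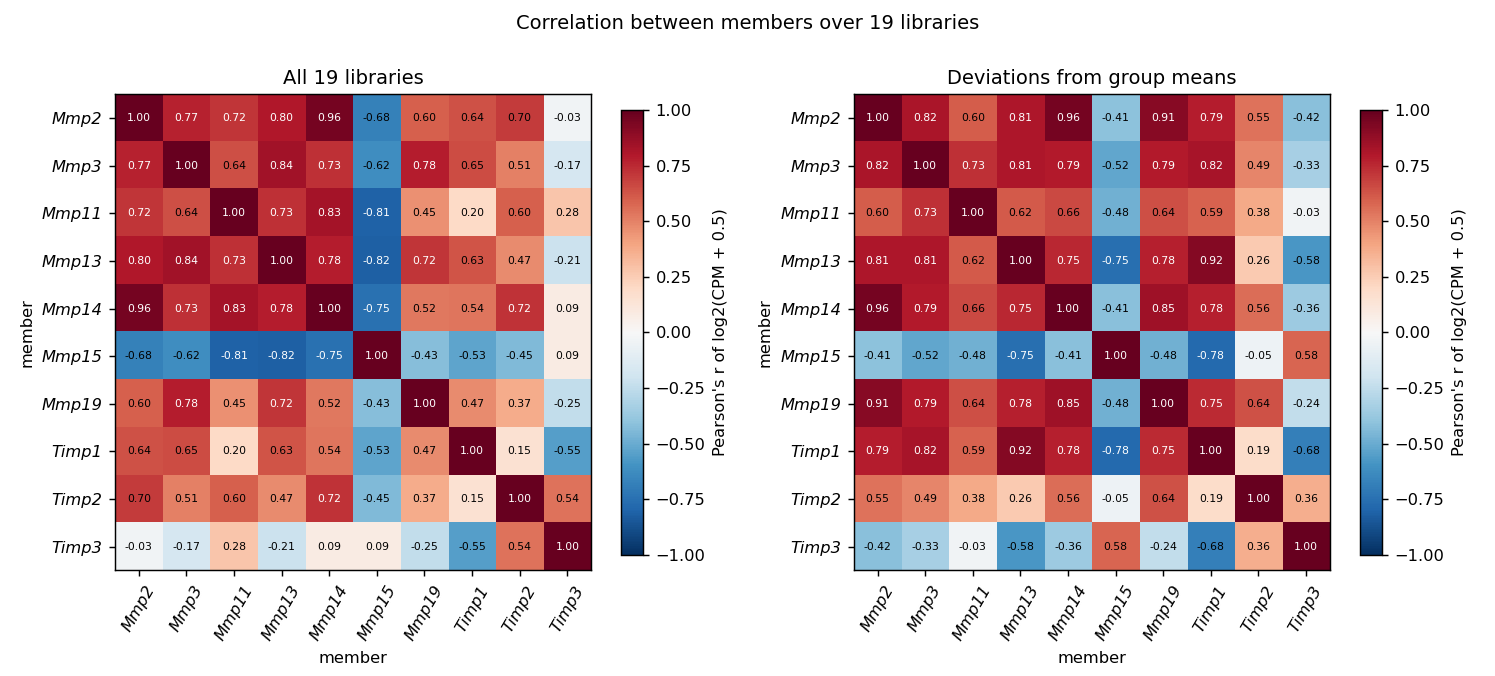
Pearson's r of log2(CPM + 0.5) between each pair of the 10 members, over all 19 libraries (left) and after subtracting group means (right); red is positive and blue negative. Mmp2 and Mmp14 have r = 0.96 in both panels, and Mmp15 is negative against most proteases.

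Mmp3 (stromelysin-1), which cuts many matrix proteins and activates other MMPs, was at 13.4, 4.83, 14.1 and 5.86 CPM in HFD fed 21, 22, 25 and 27. In HFD fasted 23, 24, 26 and 28 it was at 17.7, 4.13, 5.64 and 66.0 CPM. The HFD fasted mean of 23.4 ± 29.1 CPM (SD, n = 4) rested on library 28. The Ensure fed range was 2.07 to 9.13 CPM (median 6.48), and Ensure fasted 2, 5, 7, 8 and 17 were at 2.38, 1.60, 8.37, 7.25 and 7.05 CPM. The change after fasting was 1.29 ± 0.76 with HFD (log2, edgeR adjusted p = 0.437) and -0.17 ± 0.65 with Ensure (0.873). It ranged from -0.07 to 1.64 with HFD as single libraries were left out.

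Mmp13 (collagenase-3), the main collagenase of mice for fibrillar collagen, was low, at 5 to 200 reads per library. HFD fed 21, 22, 25 and 27 were at 1.91, 0.998, 3.50 and 1.72 CPM and HFD fasted 23, 24, 26 and 28 at 2.33, 0.522, 1.41 and 11.0 CPM. Library 28 was again far above the other HFD libraries, and 24 was below them all. Among Ensure fed libraries it was at 0.308 to 1.49 CPM (median 0.436), and Ensure fasted 2, 5, 7, 8 and 17 at 0.350, 0.300, 0.723, 2.17 and 0.457 CPM. Ensure fasted 8 was the highest Ensure library. Fasting gave 0.90 ± 0.80 with HFD (log2, edgeR adjusted p = 0.621) and 0.37 ± 0.71 with Ensure (0.740). Ensure against HFD was -1.72 ± 0.73 on the log2 scale in fed and -2.24 ± 0.78 in fasted libraries, neither of which passed (adjusted p = 0.208 and 0.121). The fasted value ranged from -3.04 without Ensure fasted 8, where it was called (adjusted p = 0.0432), to -0.85 without HFD fasted 28 (0.629).

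Timp1, an inhibitor that inflamed and fibrotic tissue makes in large amounts, was at 9.65, 3.36, 9.04 and 5.25 CPM in HFD fed 21, 22, 25 and 27. In HFD fasted 23, 24, 26 and 28 it was at 7.97, 3.39, 5.42 and 70.0 CPM. Without library 28, the fasted libraries lay within the fed range. In Ensure fed fat it was at 5.12 to 12.9 CPM (median 8.71), and Ensure fasted 2, 5, 7, 8 and 17 at 12.4, 6.40, 8.91, 29.9 and 8.27 CPM. Ensure fasted 8 alone exceeded the fed range. The change was 1.66 ± 0.76 with HFD (log2, edgeR adjusted p = 0.317) and 0.60 ± 0.63 with Ensure (0.523), and with HFD it went from 2.02 to -0.28 as single libraries were left out.

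Mmp15 (membrane-type 2), a relative of Mmp14, had the opposite order. HFD fed 21, 22, 25 and 27 were at 27.6, 30.0, 32.1 and 24.0 CPM and HFD fasted 23, 24, 26 and 28 at 23.4, 28.0, 24.2 and 11.4 CPM. All Ensure fed libraries, at 34.6 to 51.6 CPM (median 39.0), lay above every HFD library, and Ensure fasted 2, 5, 7, 8 and 17 were at 33.6, 32.3, 34.6, 22.3 and 41.2 CPM. Between the fed groups of the 2 diets, 13.3% of genes tested did not overlap. The low libraries, HFD fasted 28 and Ensure fasted 8, were those with the highest Timp1. Mmp15 in Ensure against HFD was 0.51 ± 0.20 on the log2 scale fed (edgeR adjusted p = 0.172) and 0.59 ± 0.21 fasted (0.128). Fasting gave -0.39 ± 0.22 with HFD (0.424) and -0.30 ± 0.19 with Ensure (0.253).

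Mmp19, a secreted protease of basement membrane proteins, was at 116, 63.2, 114 and 79.8 CPM in HFD fed 21, 22, 25 and 27. HFD fasted 23, 24, 26 and 28 were at 162, 60.8, 74.9 and 196 CPM. Both HFD groups were spread widely. The Ensure fed libraries had 71.9 to 95.9 CPM (median 87.3), while Ensure fasted 2, 5, 7, 8 and 17 were at 36.3, 18.2, 55.4, 115 and 54.6 CPM. Apart from Ensure fasted 8, each Ensure fasted library lay below all fed ones. The change was 0.41 ± 0.43 with HFD (log2, edgeR adjusted p = 0.679) and -0.62 ± 0.37 with Ensure (0.233). Mmp19 overlaps Tmem198b on the opposite strand by 789 exon bases, and that gene, at 10.8 to 19.6 CPM, was higher after fasting with Ensure (log2 0.48, adjusted p = 0.00688).

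Timp3, the inhibitor that stays bound to the matrix, was at 472, 691, 388 and 611 CPM in HFD fed 21, 22, 25 and 27. HFD fasted 23, 24, 26 and 28 were at 541, 583, 608 and 324 CPM, so that library 28 was lowest. Closely grouped were the Ensure fed libraries, at 384 to 441 CPM (median 396), and Ensure fasted 2, 5, 7, 8 and 17 were at 443, 398, 679, 421 and 728 CPM. Libraries 7 and 17 stood well above the fed range. Changes after fasting were -0.07 ± 0.22 with HFD (log2, edgeR adjusted p = 0.888) and 0.40 ± 0.19 with Ensure (0.144). Timp3 shares 1733 exon bases with Syn3 on the opposite strand, a gene at 3.30 to 10.1 CPM that was higher after fasting with Ensure (log2 0.68, edgeR adjusted p = 0.0279).

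Between the diets, the remaining members did not pass the test in either state. The log2 difference, Ensure against HFD, of Mmp14 was -0.47 ± 0.18 fed (edgeR adjusted p = 0.145) and -0.46 ± 0.18 fasted (0.172), and that of Mmp2 -0.54 ± 0.26 (0.287) and -0.45 ± 0.28 (0.374). Mmp3 was at -0.67 ± 0.68 fed (0.697) and -2.13 ± 0.72 fasted (0.112), the latter being -0.79 without HFD fasted 28. Mmp19 differed by -0.11 ± 0.39 fed (0.933) and -1.14 ± 0.40 fasted (0.127). Of the inhibitors, Timp1 was at 0.35 ± 0.69 fed (0.876) and -0.72 ± 0.70 fasted (0.609, turning to 1.21 without HFD fasted 28), and Timp3 at -0.42 ± 0.20 (0.288) and 0.06 ± 0.21 (0.907). Timp2 was at -0.07 ± 0.21 between fasted diets (0.875). The estimate was below 0 for 8 of the 10 members in each state; for Mmp15 it was above 0 in both.

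Whether fasting acted differently in the models was tested as the difference of the 2 responses. No gene was called by edgeR (0% of genes tested), with 1234 genes and 0 of the 10 members at an unadjusted p under 0.05. DESeq2 called 65 genes and none of the members, and limma voom with library weights called 1170 genes, Timp2 among them (log2 difference 0.73). For Mmp11 the difference, Ensure minus HFD, was -0.65 with a 95% interval of -1.45 to 0.16 (edgeR adjusted p = 0.749). For Mmp19 it was -1.03 (interval -2.22 to 0.15) and for Timp2 0.51 (-0.10 to 1.13). Each of these intervals holds both 0 and differences of over 1 on the log2 scale. For Mmp3 it was -1.46 (-3.56 to 0.63), for Timp1 -1.07 (-3.13 to 1.00) and for Mmp13 -0.53 (-2.80 to 1.74), the widest intervals. Timp3 (0.47), Mmp2 (0.09) and Mmp15 (0.08) were closer to 0, and Mmp14 had the narrowest interval, 0.01 (-0.53 to 0.55).

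Levels of many members followed those of macrophage markers. The marker list was 9 genes of lipid-associated macrophages, the Trem2-bearing cells that gather around stressed adipocytes, and every one of them was detected in all 19 libraries. Their summed level was 930 to 2657 CPM in HFD fed and 827 to 13159 CPM in HFD fasted libraries, and 409 to 620 and 302 to 1860 CPM in Ensure fed and fasted ones. The highest were HFD fasted 28 (13159 CPM) and 23 (5064 CPM), and among Ensure libraries Ensure fasted 8 (1860 CPM). These are the libraries in which Mmp2 and Mmp19 were highest in each model. Over the 19 libraries, with group means subtracted, Mmp19, Mmp3, Mmp2 and Mmp14 followed the lipid-associated sum with r = 0.90, 0.81, 0.88 and 0.84. For the summed level of 9 general macrophage markers, r was 0.92, 0.86, 0.87 and 0.84. Their relation was therefore not particular to the lipid-associated list. Mmp13 and Timp1 followed the general sum less closely (0.73 and 0.75, against 0.92 and 0.89). For Mmp11 r was 0.74 with the lipid-associated sum and 0.72 with the general sum. Timp2 had r = 0.39 with the lipid-associated sum, and Mmp15 and Timp3 went against it (-0.72 and -0.50). Other marker sums also had large coefficients within groups, of the opposite sign. With the sum of mesothelial markers r was -0.85 for Mmp19 and -0.80 for Mmp13. It was positive for Mmp15 and Timp3 (0.56 and 0.21) and negative for the remaining members. Mmp3 had r = -0.75 with the sum of epithelial markers, and Mmp14 -0.72 with that of epididymis and sperm genes. The part of the macrophage markers or of these other sums in the members' differences between groups was not tested.

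Relations of the members' levels to the lipid-associated sum were computed within each diet, 20 in all. Among the 8 HFD libraries, Mmp19 followed it in rank order without exception (Pearson r = 0.97, Spearman rho = 1, exact permutation p adjusted over the 20 = 4.96e-04 for either). Mmp3 (r = 0.96, rho = 0.98), Mmp14 (0.93, 0.86), Mmp13 (0.93, 0.93), Mmp2 (0.92, 0.93) and Timp1 (0.92, 0.88) also rose with it, each with an adjusted exact permutation p of at most 0.0306. Without HFD fasted 28 and 24, the libraries farthest from the median, r was 0.96 for Mmp19, 0.94 for Mmp14, 0.91 for Mmp2, 0.88 for Mmp3, 0.79 for Timp1 and 0.70 for Mmp13. Mmp11 had r = 0.75 but rho = 0.31 (adjusted exact permutation p = 0.0492 and 0.486), and r = 0.59 without those 2 libraries. Mmp15 and Timp3 fell with the sum by Pearson's coefficient (r = -0.80 and -0.78, adjusted exact permutation p = 0.0373 for either) but not by rank (rho = -0.62 and -0.74, adjusted exact permutation p = 0.161 and 0.102). Without the 2 libraries r was -0.38 and -0.53. Leaving out the libraries farthest from the median narrows the range of the sum, which can weaken r by itself. The weaker coefficients therefore do not show that a relation rested on those libraries. Timp2 had r = 0.20 and rho = 0.31 (adjusted exact permutation p = 0.644 and 0.486), and r = 0.75 without those 2 libraries. The libraries of a diet share tissue makeup and scaling, and the permutations exchanged fed with fasted libraries.

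Among the 11 Ensure libraries, Mmp13 followed the macrophage sum (r = 0.87, rho = 0.96, adjusted permutation p = 0.00247 and 4.96e-04; r = 0.70 without Ensure fasted 8 and 5). For Timp1 (r = 0.82), Mmp2 (0.77), Timp2 (0.68) and Mmp14 (0.63) the Pearson coefficient passed (adjusted permutation p = 0.0268, 0.0150, 0.0199 and 0.0373) and the rank coefficient (rho = 0.50, 0.54, 0.49 and 0.53) did not. Without the 2 libraries these Pearson coefficients fell to 0.20, 0.42, 0.41 and 0.30, again over a narrower range of the sum. Mmp11 in Ensure fat had r = 0.41 (adjusted p = 0.225, permutation test). Mmp19, the closest follower with HFD, did not pass with Ensure (r = 0.58, rho = 0.64, adjusted permutation p = 0.115 and 0.101). Its r was 0.07 without the 2 libraries. Mmp3 did not pass either (r = 0.46, rho = 0.58, adjusted permutation p = 0.177 and 0.132), nor did Mmp15 (r = -0.59) or Timp3 (r = 0.18).

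**Figure D5:**
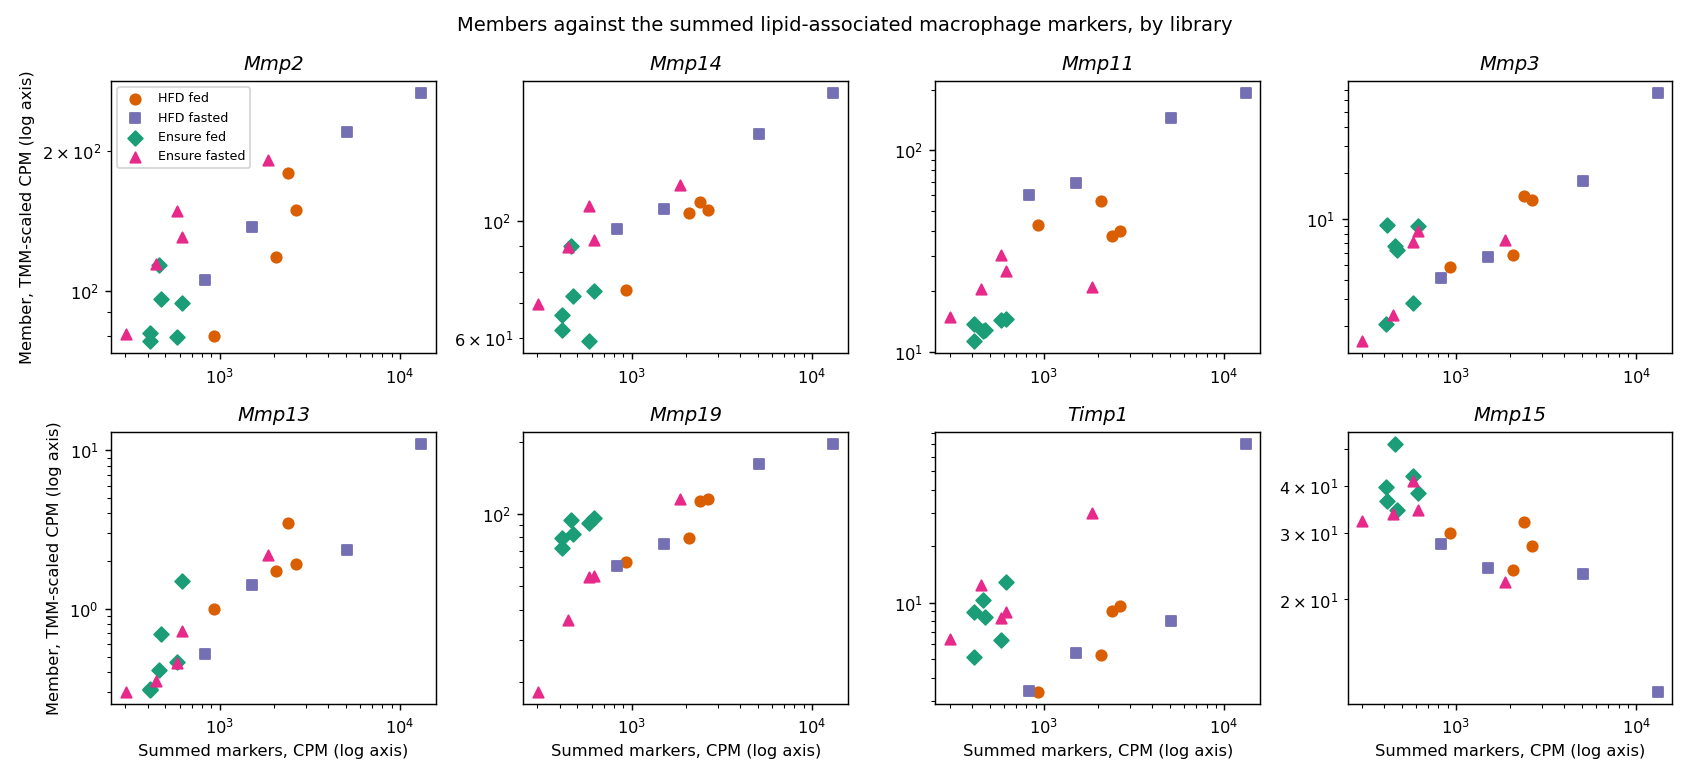
Level of 8 members (TMM-scaled CPM) against the summed level of 9 lipid-associated macrophage markers (CPM), both on logarithmic axes, in the 19 libraries coloured by group. Mmp19 rises along with the sum in HFD libraries, whereas Mmp11 is lower in each Ensure library than in each HFD library; Ensure fasted 8 (1860 CPM) lies within the HFD range of sums.

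The genes whose levels were most like a member's over the 19 libraries had high coefficients throughout, with 11266 or more candidates compared. Mmp11 was closest to Vill (r = 0.97), Ccrl2 (0.96) and Slc6a7 (0.95), which were 0.82, 0.79 and 0.60 within groups. Mmp19 was closest to Plin2, a coat protein of lipid droplets (0.96), and Mmp13 to Lgals3 (0.96), one of the 9 macrophage markers. Mmp3 was closest to Tnfaip2 (0.94), Mmp14 to Gadd45b (0.96), Timp3 to Peg13 (0.92) and Mmp15 to Gtf3c1 (0.92). Mmp13 and Timp1 followed each other within groups (r = 0.92) more than over all libraries (0.63).

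Of 16 other MMPs, 9 could be tested. Mmp12, macrophage elastase, was at 300 to 866 CPM in HFD fed and 129 to 7111 CPM in HFD fasted libraries, and at 21.6 to 75.6 and 10.5 to 224 CPM in Ensure fed and fasted ones. It was lower with Ensure by 3.82 ± 0.91 fed (log2, edgeR adjusted p = 0.0243) and 4.79 ± 1.01 fasted (0.0196). The fasted call was lost without HFD fasted 28 (-2.86, adjusted p = 0.0864) or Ensure fasted 7 or 17, and the fed call without HFD fed 21 or 27 or Ensure fed 1, 9 or 12 (up to 0.0686). Both were lost with lane as a term. Mmp9, gelatinase B, went the other way: 12.8 to 58.7 CPM in Ensure fed against 3.55 to 8.41 CPM in HFD fed libraries (log2 2.14 ± 0.56, adjusted p = 0.0397), a call lost with lane as a term and without any of the HFD fed libraries or Ensure fed 1, 9, 10 or 16 (adjusted p up to 0.109 in these omissions). The summed level of 8 neutrophil markers was 40.9 to 65.8 CPM in Ensure fed and 14.1 to 42.9 CPM in HFD fed libraries, and their part in Mmp9 was not tested. Mmp23 was higher after fasting with Ensure (0.41, edgeR adjusted p = 0.0445), where 10.6% of all genes tested were higher. The fasting comparison with HFD called 0 of the 9, and 1.22% of all genes tested.

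Of 10 other inhibitors tested, 3 were higher after fasting with Ensure and 0 lower, against 10.6% of genes higher. Reck, a membrane-anchored inhibitor of MMPs, was at 18.1 ± 1.65 CPM fed and 28.0 ± 3.57 CPM fasted (SD, n = 6 and 5), a log2 change of 0.63 ± 0.14 (SE, edgeR adjusted p = 0.00484). Every fasted library was above every fed one, and 15% of genes tested had such a separation in either direction. Without the 5 libraries rich in epididymis genes its change was 0.64 (adjusted p = 0.0588), and without 3 further epithelium-rich libraries 0.61 (0.126). Thbs2 and Thbs1, secreted glycoproteins that bind Mmp2, changed by 1.58 ± 0.32 (0.00251) and 1.19 ± 0.39 (0.0404), in a comparison in which 8 of 10 smooth muscle markers were also higher. The sum of those markers was 10669 CPM in Ensure fasted 5 and 958 to 1528 CPM in the other Ensure fasted libraries; its part in these changes was not tested. Timp4, the remaining TIMP, was called in no comparison; its lowest adjusted p was 0.202, for fasting with HFD (log2 -0.91 ± 0.33).

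Among 16 genes that activate or clear MMPs, fasting with Ensure raised 1, the integrin subunit Itgb3 (0.59, edgeR adjusted p = 0.0462). Plau, the urokinase that starts the plasmin cascade, and its inhibitor Serpine2 were lower with Ensure among fed libraries (log2 -1.14, 0.0387, and -0.60, 0.0445). The urokinase receptor Plaur was lower among fasted libraries (-1.53, 0.0461). Over all genes tested, 4.26% were called in either direction between fed diets and 2.82% between fasted diets. Of 18 ADAMTS proteases, Adamts18 and Adamts9 were higher with Ensure fed (1.50 and 0.75) and lower after fasting with Ensure (-0.81 and -0.48), comparisons that share the Ensure fed libraries. Among fasted libraries, 3 ADAMTS proteases were higher with Ensure. With lane as a term, 2 genes in all were called between fed diets, both higher with Ensure, and 0 between fasted diets. The calls of Plau, Serpine2 and Plaur and the 3 ADAMTS calls between fasted diets were therefore lost. The outcome for Adamts18 and Adamts9 between fed diets with that term is not given here. Of 9 ADAM proteases, fasting with Ensure called Adam33 higher (0.93) and Adam12 lower (-1.16). Fasting with Ensure called 20.3% of all genes tested, and 10.6% as higher, so that these fasting calls were not more frequent than the general rate by any wide margin.

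Of 24 genes of matrix proteins, the substrates of these enzymes, 5 were higher and 1 lower with Ensure among fed libraries, and 9 higher and 1 lower among fasted libraries. Over all genes tested, 335 were higher and 347 lower fed, and 261 higher and 191 lower fasted. With lane as a term, 2 genes in all were called between fed diets and 0 between fasted diets, so that none of the fasted matrix calls and at most 2 of the fed ones held. Eln (elastin) was higher by 2.06 ± 0.32 fed (log2, edgeR adjusted p = 0.00211) and 2.01 ± 0.32 fasted (0.00450). The fibrillar collagens Col3a1 (1.33 and 1.38) and Col1a1 (1.05 and 1.25) were higher in both states, and Fbn1 (1.71) among fasted libraries. Decorin (Dcn), a collagen-binding proteoglycan, was lower in both (-0.84 and -0.62). The median over the 24 was 0.62 fed and 0.78 fasted, against -0.51 and -0.59 for the 10 members. After fasting, Col15a1, a collagen of the basement membrane zone, was the 1 matrix gene called in either model, lower by 1.00 ± 0.23 with HFD (adjusted p = 0.0376) and 0.93 ± 0.20 with Ensure (0.00366). Fasting called 1.22% of all genes tested with HFD and 20.3% with Ensure.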

How the data were processed

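RNA from whole perigonadal fat was extracted with an RNeasy kit, selected for poly-adenylated RNA, prepared with a TruSeq RNA kit and sequenced on a HiSeq2000, per the labels' protocols. The submitters' processing notes name bcl2fastq 1.8.4, TopHat2 2.1, HTSeq 0.6.1 and the mouse build mm9; the sources used here give no strand setting. The authors deposited raw counts of reads per gene symbol for 19 libraries, with summary lines that were kept out of all totals and made up 13.0 to 17.3% of a library for reads outside genes. Totals in genes were 12.8 to 22.6 M.

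Counts were tested with edgeR 4.0.16 in R 4.3.3 (quasi-likelihood F test, 1 fit of 19 libraries in 4 groups, TMM scaling, filterByExpr at a minimum count of 10, 16015 genes, calls at a Benjamini-Hochberg adjusted p under 0.05 over all of them). Contrasts were fasting within each diet, the difference of those responses, and the diets within fed and within fasted libraries. The standard error is the log2 change divided by the square root of F. The 37 pairs of libraries within groups gave chi-square values of 6.92 to 294 for each gene on average, so none was counted as a repeat. Alternatives were DESeq2 1.42.0 and its size factors, limma 3.58.1 voom with library weights, total counts, other count minimums, fits of the compared groups alone, a lane term, omission of libraries rich in reproductive tract or epithelial genes, and omission of each library.

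On simulated counts for 15852 to 15881 genes, the test called 48, 55.7, 35.4, 47 and 42.9% of 2-fold changes and 80.8, 84.7, 67.7, 77 and 81% of 4-fold changes in the 5 contrasts, in the order above, and 2.29 to 3.88% of its calls were false. The simulation drew each gene independently, from its mean over all libraries and its fitted spread. It held no admixed tract tissue, no shift shared between genes and no outlying library, so these rates need not hold for the real libraries. Members and gene lists were chosen with earlier results of these data known. Every member is named. From the other lists, called genes are named, at most 4 per contrast by smallest p, plus Timp4, Mmp9, Mmp12, Reck and genes whose exons overlap a member; the text gives a selection of them. The 3 genes most like a member were ranked by Pearson r over 19 libraries among genes with a mean of at least 5 CPM. Exon lengths and overlaps are from GENCODE vM21, used for names and lengths only.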

Additional observations from a re-analysis of the deposited data

Results flagged for a closer look

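Of the 40 combinations of 10 members and 4 groups, 5 held a library far from the rest of its group by Dixon's gap test, which flags about 1 in 20 groups by chance. Timp1 was at 70.0 CPM in HFD fasted 28, where the other HFD fasted libraries were at 3.39 to 7.97 CPM. It was at 29.9 CPM in Ensure fasted 8, where the others of that group were at 6.40 to 12.4 CPM. Mmp13 was at 2.17 CPM in the same Ensure fasted 8, against 0.300 to 0.723 CPM in its group. Mmp13 was also at 1.49 CPM in Ensure fed 18, the 1 Ensure library sequenced in lane 7, against 0.308 to 0.691 CPM in the other Ensure fed libraries. Mmp14 was at 74.1 CPM in HFD fed 22, below the 104 to 109 CPM of the other HFD fed libraries.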

How the results depend on the processing

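No paired analysis was possible because the groups share no replicate numbers. The number of the 10 members called was 1 in each comparison of groups and 0 in the difference of responses. For fasting with HFD it was 0 with lane as a term and in the fit of the compared groups alone, and 2 without the 8 tract-rich or epithelium-rich libraries (Mmp3 added); for fasting with Ensure it was 3 with total counts, DESeq2 or the compared groups alone, 2 at a minimum count of 50, 6 with limma voom and 0 with lane. In the difference, limma voom called 1. Between fed diets it was 2 with total counts or DESeq2, 6 with limma voom, 5 with the compared groups alone and 0 with lane. Between fasted diets it was 4 with DESeq2, 2 with limma voom, 3 without the 8 libraries, and 0 with lane or the compared groups alone. Leaving out 1 library gave 0 to 1, 0 to 3, 0 to 0, 1 to 2 and 1 to 3 in the 5 contrasts.

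Over all genes, calls for fasting with HFD went from 195 to 639 (DESeq2), 2974 (limma voom), 62 (lane), 1 (compared groups alone) and 910 (without the 8 libraries). For fasting with Ensure they went from 3255 to 5638 (limma voom), 760 (lane), 1145 (without the 5) and 772 (without the 8); for the difference to 65 (DESeq2), 1170 (limma voom) and 1 (without the 8). Between fed diets they went from 682 to 1551 (DESeq2), 5441 (limma voom), 2 (lane), 2933 (groups alone) and 213 (without the 8), and between fasted diets from 452 to 1295, 3418, 0, 1 and 1598 in the same order. The causes were not tested.

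No change of sign concerned a called value. With limma voom, fasting with HFD gave log2 changes of -0.20 for Mmp3, -0.38 for Mmp13, -0.078 for Mmp19, -0.048 for Timp1, -0.037 for Timp2 and 0.029 for Timp3, and Timp2 was -0.014 without a low-count filter. Mmp3 after fasting with Ensure was 0.20 with limma voom, 0.014 with lane and 0.15 without the 5 libraries. In the difference, limma voom gave 0.41 for Mmp3, 0.38 for Mmp11, 0.42 for Mmp13, -0.045 for Mmp15 and 0.23 for Timp1; Mmp14 was -0.0091 with DESeq2's size factors, -0.0090 in its test, -0.044 with lane, -0.015 without the 5 libraries and -0.26 without the 8, where Mmp2 was -0.23. Between fed diets, Mmp19 was 0.065 with limma voom, 0.043 with lane and 0.094 without the 8 libraries, and Mmp3 0.028 without the 8. Between fasted diets, limma voom gave 0.042 for Mmp2, 0.18 for Mmp3, 0.90 for Timp1 and 0.081 for Timp2; Timp2 was 0.039 with lane, 0.14 without the 5 and 0.15 without the 8, and Timp3 -0.011 with total counts.

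Leaving out 1 library turned the sign of uncalled changes, whose ranges were, for fasting with HFD, -0.065 to 1.64 (Mmp3), -0.51 to 1.30 (Mmp13), -0.28 to 2.02 (Timp1), -0.091 to 0.10 (Timp2) and -0.21 to 0.12 (Timp3), and for fasting with Ensure -0.41 to 0.015 (Mmp3) and -0.45 to 0.80 (Mmp13). In the difference they were -0.13 to 0.27 (Mmp2), -1.36 to 0.83 (Mmp13), -0.13 to 0.12 (Mmp14), -0.20 to 0.23 (Mmp15) and -1.65 to 0.83 (Timp1). Between diets they were -0.26 to 0.068 (Mmp19, fed), -1.27 to 1.21 (Timp1, fasted), -0.20 to 0.039 (Timp2, fasted) and -0.14 to 0.13 (Timp3, fasted). Mmp13 was low, at 5 to 200 reads per library, and the part of counting in its spread was not tested.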
